A study of Homo sapiens with 21 samples.

Results

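The expression of 10 genes of the NRF2 and glutathione system was followed in HepG2 cells, an established human liver cancer line, across a range of caffeine doses. They are NFE2L2, KEAP1, GCLC, GCLM, SLC7A11, HMOX1, NQO1, TXNRD1, SRXN1 and GSR, a fixed list of symbols matched to Ensembl IDs among the 37637 features of the count table. The list was chosen with earlier results of these data known, so counts of members set beside shares of all genes are a description only. All 10 members were found and all 10 passed the filter on low counts, with raw counts per library between 717 for SLC7A11 and 46210 for NQO1. The cells were given caffeine at 0, 0.01, 0.1, 1, 10, 100 or 1000 µM for 6 h in DMEM without serum, with 3 samples per dose and 21 in all. The 0 µM samples are the controls and also spent the 6 h in medium without serum, so no group shows the genes in serum. The series text calls the samples biological replicates, and nothing in the labels says whether they came from separate days or passages, so p-values measure the spread between these samples. One sentence of the series text names a different compound for the control, and the sample titles, which give caffeine at 0 µM, were followed.

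NFE2L2 encodes NRF2, a transcription factor that binds antioxidant response elements together with small MAF proteins. In unstressed cells KEAP1 hands NRF2 to a CUL3 ubiquitin ligase for breakdown, and electrophiles or oxidants that modify KEAP1 let NRF2 build up. Its known targets in liver cells supply cystine (SLC7A11), make glutathione (GCLC and GCLM), regenerate it (GSR), run the thioredoxin system (TXNRD1, SRXN1), reduce quinones (NQO1) and break down heme (HMOX1). Since NRF2 activity is set largely by protein turnover, the mRNA of NFE2L2 is only one layer of the system. Only mRNA was measured here.

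Library totals ran from 28043623 to 40827833 counts. The mitochondrial share of counts was 4.95% to 14.2% and was 6.94% to 7.86% in the 3 control libraries and 6.94% to 10.3% in the 3 libraries at 1000 µM. The highest shares, 14.2%, 11.7% and 11.3%, were in 1 µM replicate 3, 0.01 µM replicate 1 and 10 µM replicate 1. All 10 liver markers examined, ALB, AFP and APOB among them, were detected in every library, with a summed level of 24993 to 31274 CPM. Of the 4 leukocyte markers examined, PTPRC and CD3E had 0 to 1 counts per library. COL3A1 had 0 to 1 and COL1A2 had 0. The other leukocyte markers, CD14 (14 to 47 counts) and CD68 (53.1 to 106 CPM), were detected in every library, as was PDGFRB. The summed level of the 4 fibroblast markers, nearly all of it PDGFRB, was 8.17 to 8.79 CPM at 1000 µM and 3.98 to 5.62 CPM in the other 18 libraries, with the collagen markers at or near 0 throughout.

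At 1000 µM caffeine the mRNA of the system rose, and it did so unevenly. TXNRD1, SLC7A11, GCLM and GCLC rose 2.80-fold to 3.26-fold over the controls, SRXN1 2.23-fold and NFE2L2 1.89-fold. GSR, KEAP1 and NQO1 rose by only 1.24-fold to 1.27-fold, and HMOX1, at 1.15-fold, did not pass the test. Thus 9 of 10 members passed in the upward direction (edgeR's quasi-likelihood test, adjusted p under 0.05), where 20.6% of the 17468 genes tested did so, and none was called lower. For all 10, each of the 3 libraries at 1000 µM lay above each of the other 18, a separation that 8.1% of tested genes showed in that direction. Levels are in CPM, the usual read count per library size, with each size corrected by its TMM factor except for the markers above. They are shares of the sequenced mRNA, so more cells of a kind and more RNA per cell cannot be told apart.

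**Figure D1:**
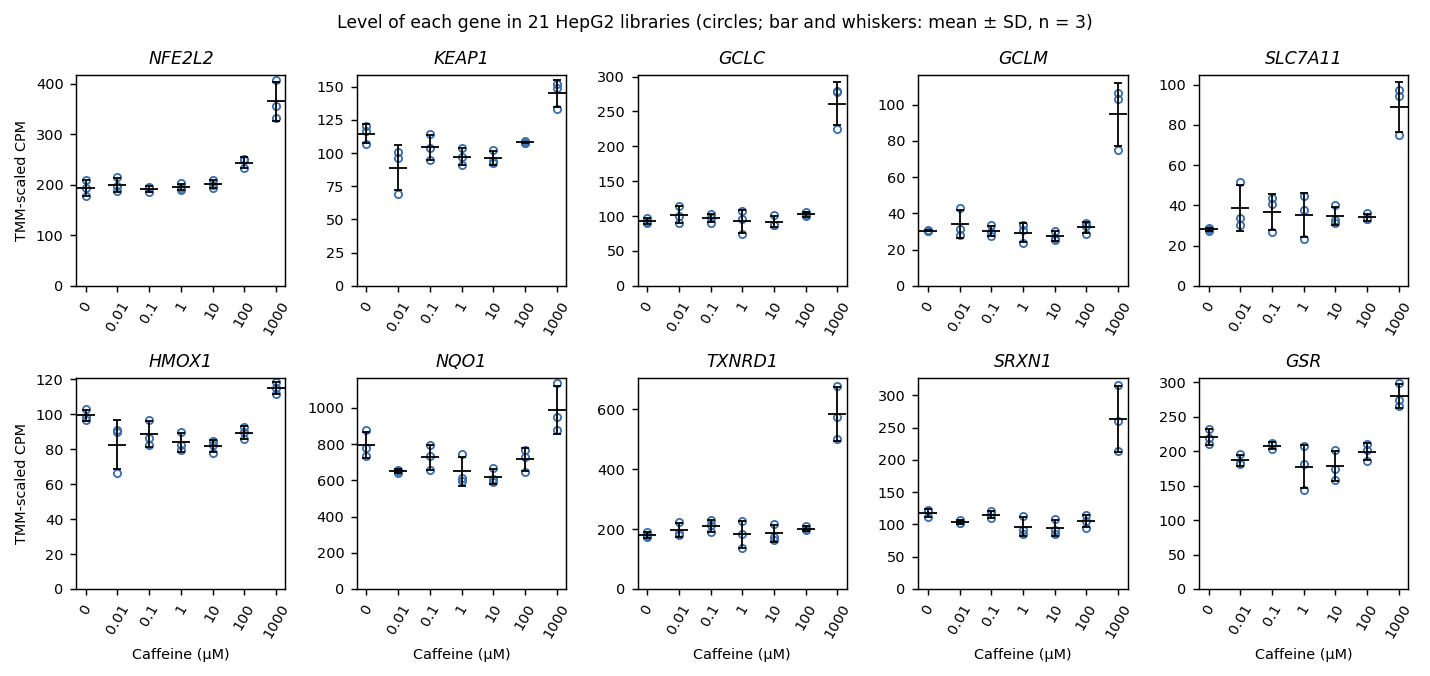
Level of each of the 10 genes in TMM-scaled CPM (vertical axes start at 0) against caffeine dose in µM, with doses evenly spaced. Circles are single libraries, and the bar with whiskers is the mean ± SD of the 3 libraries of a dose. For every gene the 3 circles at 1000 µM lie above all 18 others, by a wide gap for GCLC, GCLM, SLC7A11, TXNRD1 and SRXN1 and a narrow one for NQO1.

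NFE2L2 (ENSG00000116044.16, chromosome 2, bases 177227595 to 177392697 of GRCh38, minus strand) was the only member to pass the test upward at 100 µM in the model of all 21 libraries; with only the 6 samples compared, SLC7A11 passed too (adjusted p = 0.0230). Its control libraries had 194, 178 and 209 CPM, those at 100 µM 250, 249 and 232 CPM, and those at 1000 µM 332, 356 and 407 CPM. The 3 groups did not overlap, while the 12 libraries at 0.01 to 10 µM, at 185 to 214 CPM, overlapped the control range. The log2 change was 0.33 ± 0.08 (SE) at 100 µM, with an edgeR adjusted p of 0.0319, and 0.92 ± 0.09 at 1000 µM, with an adjusted p of 4.80e-07. Upward calls at 100 µM covered 2.74% of tested genes, and 1 of the 10 members. That call rested on few libraries: it was lost when any 1 of the 6 libraries compared, other than 0 µM replicate 3, was left out, leaving 0 members, and also when the replicate number was added to the model (0 members). How many of all genes lost their call in these fits is not given here. The rise from 100 to 1000 µM was 0.58 ± 0.08 on the log2 scale (adjusted p = 0.000168).

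KEAP1 (ENSG00000079999.14, chromosome 19, bases 10486120 to 10503741, minus strand), the NRF2 repressor, changed less. It had 117, 120 and 107 CPM in the controls and 149, 152 and 134 CPM at 1000 µM. These groups did not overlap, and the log2 change was 0.34 ± 0.11 (edgeR adjusted p = 0.0225). Without 0 µM replicate 3 the adjusted p was 0.0626 and without 1000 µM replicate 2 it was 0.0519, so the call depended on those libraries. At 0.01 µM KEAP1 had its lowest level of any dose, 89.0 ± 17.0 CPM (SD, n = 3), with 69.6 CPM in replicate 1, the library with the second highest mitochondrial share.

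The genes that feed and catalyse glutathione synthesis made up most of the top of the list. GCLC (ENSG00000001084.12, chromosome 6, bases 53497341 to 53616970, minus strand), the catalytic subunit of glutamate-cysteine ligase, had 91.4, 90.3 and 97.6 CPM in the controls. It had 106, 102 and 99.3 CPM at 100 µM and 225, 279 and 279 CPM at 1000 µM. The gap between 1000 µM and all other libraries, the highest of which was at 115 CPM, was wide. Its log2 change at 1000 µM was 1.49 ± 0.13 (edgeR adjusted p = 1.71e-07).

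GCLM (ENSG00000023909.10, chromosome 1, bases 93885205 to 93909456, minus strand), the modifier subunit that makes the ligase more efficient, moved by a similar factor from a lower level. Its controls were close together at 30.8, 30.5 and 30.3 CPM, and the libraries at 1000 µM had 74.9, 103 and 107 CPM. All other libraries lay between 23.8 and 42.9 CPM. GCLM changed by log2 1.64 ± 0.16 (adjusted p = 1.03e-06). At 100 µM it was 0.08 ± 0.16 and did not pass (adjusted p = 0.794).

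SLC7A11 (ENSG00000151012.13, chromosome 4, bases 138164097 to 138242349, minus strand) encodes the transport subunit of the cystine-glutamate exchanger, which brings in the cysteine for glutathione. Its controls, at 27.4, 28.3 and 28.7 CPM, had the lowest mean of any dose, and the 1000 µM libraries had 74.7, 94.6 and 97.3 CPM. The difference was log2 1.66 ± 0.22 (adjusted p = 2.22e-05), with the largest error of the 10 genes. In between it was the most scattered member: single libraries ran from 23.4 CPM in 1 µM replicate 3 to 51.6 CPM in 0.01 µM replicate 1, and these are 2 of the 3 libraries of highest mitochondrial share. Its level at 0.01 µM was 38.6 ± 11.4 CPM (SD, n = 3), which did not pass against 0 µM (adjusted p = 0.198).

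GSR (ENSG00000104687.14), which turns oxidised glutathione back into its reduced form, rose far less than the synthesis genes. It had 232, 210 and 219 CPM in the controls and 266, 299 and 275 CPM at 1000 µM, groups that did not overlap. This was a log2 change of 0.34 ± 0.11 (edgeR adjusted p = 0.0193). The adjusted p was 0.0731 without 0 µM replicate 2 and 0.0534 without 1000 µM replicate 2. Its mean at every dose from 0.01 to 100 µM was below that of the controls, with 144 CPM in 1 µM replicate 3 as the lowest library.

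TXNRD1 (ENSG00000198431.16, chromosome 12, bases 104215779 to 104350305, plus strand), the cytosolic selenoenzyme that reduces thioredoxin, had the largest change of the 10. It went from 190, 177 and 172 CPM in the controls to 500, 678 and 576 CPM at 1000 µM. The highest of the other libraries was at 230 CPM, so the groups were far apart. TXNRD1 rose by log2 1.70 ± 0.16 (adjusted p = 4.80e-07), rank 209 of 17468 tested genes counted from the highest fold.

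SRXN1 (ENSG00000271303.1, chromosome 20, bases 646615 to 653370, minus strand), which repairs overoxidised peroxiredoxins, had 123, 120 and 111 CPM in the controls and 214, 316 and 261 CPM at 1000 µM. Libraries at 0.01 to 100 µM lay at 84.4 to 121 CPM, none of them above the highest control. Its log2 change was 1.16 ± 0.13 (edgeR adjusted p = 4.33e-06). In the GENCODE annotation a second protein-coding gene on the same strand, AL121758.1, overlaps 85.0% of the SRXN1 exon bases. It held 1274 counts over all 21 libraries, against 2593 to 12817 counts per library for SRXN1, and reads of the shared bases cannot be told apart.

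NQO1 (ENSG00000181019.13, chromosome 16, bases 69706996 to 69726951, minus strand), a quinone reductase, was the most abundant member. Its controls had 875, 780 and 734 CPM and its 1000 µM libraries 880, 1138 and 950 CPM. The lowest library at 1000 µM was thus only just above the highest control. The log2 change was 0.31 ± 0.11 (adjusted p = 0.0314), and it lost the call when 1 of 4 libraries was left out: the adjusted p was 0.0870 without 0 µM replicate 2, 0.0931 without 0 µM replicate 3, 0.139 without 1000 µM replicate 2 and 0.0509 without 1000 µM replicate 3. It was also lost without a filter on low counts (adjusted p = 0.0538) and with only the 6 samples compared in the fit (adjusted p = 0.0580).

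NQO1 was also the only member called lower at any dose in the model of all 21 libraries. At 10 µM its libraries had 588, 606 and 668 CPM, all below the controls. Against 0 µM the log2 change was −0.36 ± 0.11 (edgeR adjusted p = 0.0286). Of all tested genes 10.7% were called lower at 10 µM, so 1 of 10 members is near the background. With replicate 1 or 2 of either group left out, 0 members were called, and without 10 µM replicate 3 there were 3 (NQO1, SRXN1 and GSR). What share of all genes was called in these reduced fits is not given here, so these counts have no background beside them. Without the 3 libraries of highest mitochondrial share, HMOX1 was called lower at 10 µM (adjusted p = 0.0389) and NQO1 was not (adjusted p = 0.0958).

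HMOX1 (ENSG00000100292.17, chromosome 22, bases 35380361 to 35394214, plus strand), heme oxygenase, changed least. It had 103, 98.6 and 96.9 CPM in the controls and 118, 115 and 111 CPM at 1000 µM. The groups did not overlap, but the log2 change of 0.21 ± 0.10 did not pass (edgeR adjusted p = 0.108). It passed with only the 6 samples compared in the fit (adjusted p = 0.0492), and without the 3 libraries of highest mitochondrial share, when the log2 change was 0.23 (adjusted p = 0.00723). Against each of the 5 other doses HMOX1 passed, with log2 differences of 0.36 to 0.49. Its mean at each of those doses was below that of the controls.

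The comparison of 1000 with 100 µM does not use the control libraries. All 10 members passed it in the upward direction, where 8.15% of tested genes did. The log2 changes were 1.56 for GCLM, 1.53 for TXNRD1, 1.39 for SLC7A11, 1.35 for GCLC and 1.33 for SRXN1. They were 0.58 for NFE2L2, 0.49 for GSR, 0.47 for NQO1, 0.42 for KEAP1 and 0.36 for HMOX1 (adjusted p = 0.0225). The median of the 10 was 0.95, against −0.01 over all tested genes, and for 1000 against 0 µM it was 1.04 against −0.03. Both comparisons share the 1000 µM libraries.

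**Figure D2:**
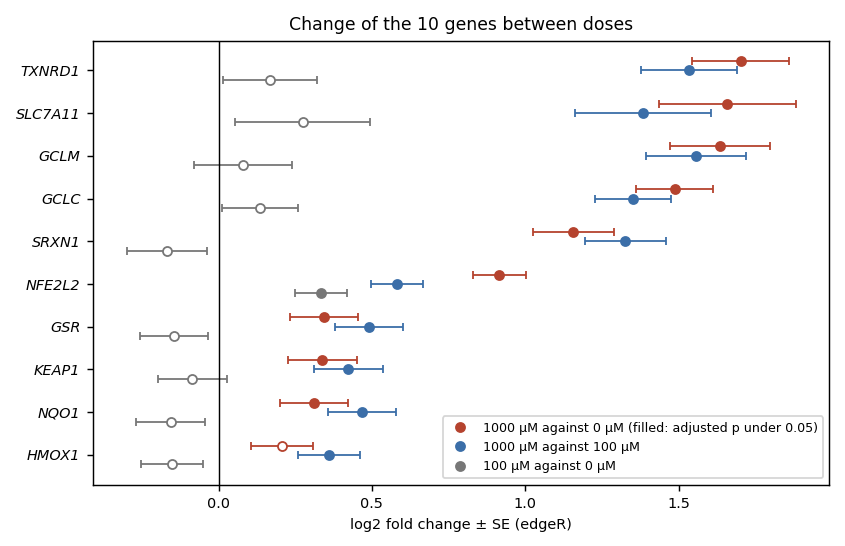
Log2 fold change with its SE (horizontal axis) of the 10 genes for 1000 against 0 µM (red), 1000 against 100 µM (blue) and 100 against 0 µM (grey). Filled circles have an edgeR adjusted p under 0.05, and the grey circle of NFE2L2 is the only filled one at 100 µM.

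For most members nearly all of the dose response thus lay in the last dose step. For NFE2L2 the log2 change was already 0.33 at 100 µM, against 0.92 at 1000 µM. Across the 7 groups together, all 10 members differed (edgeR adjusted p under 0.05; 28.1% of tested genes did). With the doses numbered 0 to 6 in rising order, a slope per dose step passed for 6 members, all upward: TXNRD1 at 0.21, GCLM at 0.20, GCLC and SLC7A11 at 0.18, SRXN1 at 0.14 and NFE2L2 at 0.13 log2 units per step (14.5% of tested genes had an upward slope). KEAP1, GSR, NQO1 and HMOX1 did not pass. Without the 3 samples at 1000 µM, 0 members had a slope and 0 differed among the groups left. The share of all genes that passed in these reduced fits is not given here, so these counts have no background beside them. Of 60 tests of a member at 1000 µM against a lower dose 59 passed, all upward. Among all tested genes 9.98%, 11.7%, 12.8% and 9.96% were higher at 1000 µM than at 10, 1, 0.1 and 0.01 µM. Of 150 tests of members between pairs of the 6 lower groups 2 passed, those of NFE2L2 at 100 µM and NQO1 at 10 µM against 0 µM, where 2.23% of such tests passed over all genes. Ordered by mean level, 1000 µM came first for every gene, and the control came next for KEAP1, HMOX1, NQO1, SRXN1 and GSR but last for SLC7A11 and TXNRD1. The step up to 1000 µM passed for every gene but HMOX1, and no other neighbours in these orders differed beyond their spread by the test.

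The lower doses showed a pattern by gene that mostly stayed below the threshold. KEAP1, HMOX1, NQO1, SRXN1 and GSR had all 3 libraries below all 3 controls at 0.01 µM and again at 10 µM. That is 5 of 10 members at each dose, where 16.3% and 23.4% of tested genes did so. SLC7A11 had all 3 libraries above the controls at both doses (15.7% and 22.4% of genes). At 0.1 µM only HMOX1 was separated, below the controls (12.4% of genes). At 1 µM KEAP1, HMOX1 and GSR were below (12.5% of genes). At 100 µM NFE2L2, GCLC, SLC7A11 and TXNRD1 were above (21% of genes) and HMOX1 and GSR below (22% of genes). The 6 doses share the same 3 controls. By the edgeR test, 0 members passed at 0.01, 0.1 or 1 µM, with 4, 0 and 4 at an unadjusted p under 0.05, where 26.1%, 15.2% and 22.8% of all tested genes were under it, and the background of calls was 4.95%, 0% and 0%. With DESeq2, 1 member passed at 0.01 µM (KEAP1, lower) and 0 at 0.1 and 1 µM. KEAP1 also passed at 0.01 µM without 0.01 µM replicate 3, and GSR at 1 µM without 1 µM replicate 1, 1 member in each case. For DESeq2 and these reduced fits the share of all genes called is not given here.

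The highest and the lowest libraries were often the same for several members. Among the 18 libraries below 1000 µM, 1 µM replicate 3 was the lowest for 5 members (GCLC, GCLM, GSR, SLC7A11 and TXNRD1). In contrast, 0.01 µM replicate 1 was the highest for GCLC, GCLM and SLC7A11 and the lowest for KEAP1 and HMOX1. These libraries had the highest mitochondrial shares, and the part of these shares in the levels was not tested. Within its dose, 10 µM replicate 3 was the highest library for 10 of 10 members, and it had a mitochondrial share of 6.48% against 9.96% and 11.3% in the other 10 µM libraries. At 1000 µM replicate 1 was the lowest for 8 of 10 members. Without the 3 libraries of highest mitochondrial share, HMOX1 also passed at 1000 µM against 0 µM, as given above.

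**Figure D3:**
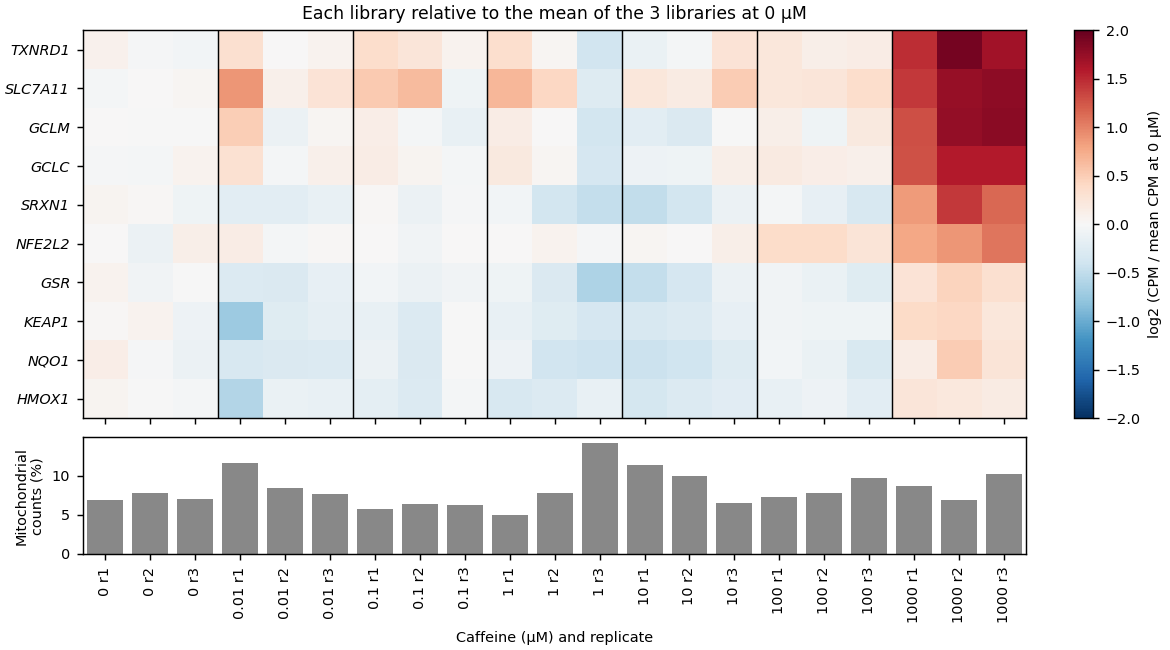
Upper panel: log2 ratio of each library's CPM to the mean CPM of the 3 controls (red higher, blue lower), genes in rows and the 21 libraries in columns ordered by dose and replicate. Lower panel: mitochondrial share of counts in percent. The 3 columns at 1000 µM are red in all 10 rows, and 1 µM replicate 3, with the highest mitochondrial share at 14.2%, is below the control mean in all 10.

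Per kilobase of merged exon, the members spanned a wide range of levels. In the controls NQO1 stood at 245 ± 22.1 CPM per kb, GSR at 58.7 ± 2.93 and SRXN1 at 43.8 ± 2.24 (SD, n = 3). HMOX1 followed at 41.4, NFE2L2 at 32.4, KEAP1 at 30.5 and TXNRD1 at 26.8 CPM per kb. The glutathione synthesis genes were lowest, with GCLC at 10.8, GCLM at 5.63 and SLC7A11 at 2.92 CPM per kb. At 1000 µM SRXN1 stood at 97.7 ± 18.8 and TXNRD1 at 87.1 ± 13.3 CPM per kb, both above GSR at 74.5 ± 4.53, while the 3 synthesis genes were still the lowest at 30.2, 17.5 and 9.21 CPM per kb. The exon models are the GENCODE gene models, and which transcripts HepG2 cells use was not measured. Some members overlap other annotated genes. AC019080.1 on the same strand covers 17.6% of the NFE2L2 exon bases and held 925 counts over the 21 libraries. For GCLC, AL033397.1 covers 6.12% and held 10814 counts. On the opposite strand AC092115.2 covers 17.7% of NQO1 (25 counts) and SLC7A11-AS1 covers 8.97% of SLC7A11 (117 counts). AGPS, on the opposite strand with 100187 counts of its own, shares 54 bases or 0.90% of the NFE2L2 exon bases. Whether counting used strand is not given in the sources used here.

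Promoter windows are shown because most members rose at 1000 µM and many NRF2 targets are known to share one control element. The antioxidant response element has the core TGACNNNGC, which was searched on both strands in the 250 bases before each RefSeq transcription start (GRCh38.p14). Windows were used for 7 members, NFE2L2, KEAP1, GCLC, GCLM, NQO1, TXNRD1 and SRXN1, and 10 windows in all, since NFE2L2, KEAP1 and TXNRD1 have 2 starts each. No window of SLC7A11, HMOX1 or GSR was searched. The core was present in 4 of the 10 windows, those of GCLM, both of TXNRD1 and 1 of KEAP1, and in 10.9% of all 35116 windows. The related AP-1 motif TGANTCA was in none of the 10 and in 6.57% of all windows. The 5 matches are given below with 10 bases on either side, 5′ to 3′ on the gene's strand, with the core in capitals; where the capitals end in GTCA, the core lies on the opposite strand.
GCLM, chr1:93909446-93909474, minus strand: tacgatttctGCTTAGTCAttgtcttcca
TXNRD1, upstream start, chr12:104215670-104215698, plus strand: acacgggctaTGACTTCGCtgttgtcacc
TXNRD1, downstream start, chr12:104286920-104286948, plus strand: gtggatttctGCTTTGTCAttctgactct
KEAP1, chr19:10502807-10502835, minus strand: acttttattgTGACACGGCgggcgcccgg
KEAP1, chr19:10502784-10502812, minus strand: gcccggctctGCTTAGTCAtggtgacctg

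The GCLM core begins 34 bases before its start and the KEAP1 cores 54 and 31 bases before theirs, while those of TXNRD1 begin 99 and 102 bases before. The GCLM and second KEAP1 matches carry the same 9 bases, GCTTAGTCA. Of the genes with a core in a window, TXNRD1 and GCLM rose 3.26-fold and 3.11-fold at 1000 µM and KEAP1 1.26-fold, and GCLC rose 2.80-fold with no core in its window. A match is a description of these letters only, and no binding was measured. Bases outside these windows were not searched, so a window without a core does not show that a gene lacks the element. The whole windows of the strongest risers that have a core are given for context, again with the core in capitals.
GCLM, chr1:93909431-93909680, minus strand: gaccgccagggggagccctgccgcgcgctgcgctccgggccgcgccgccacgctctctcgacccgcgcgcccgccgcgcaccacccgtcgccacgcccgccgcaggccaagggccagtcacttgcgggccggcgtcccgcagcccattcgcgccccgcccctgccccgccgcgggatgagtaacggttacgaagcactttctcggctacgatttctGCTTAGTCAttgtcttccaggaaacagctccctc
TXNRD1, upstream start, chr12:104215529-104215778, plus strand: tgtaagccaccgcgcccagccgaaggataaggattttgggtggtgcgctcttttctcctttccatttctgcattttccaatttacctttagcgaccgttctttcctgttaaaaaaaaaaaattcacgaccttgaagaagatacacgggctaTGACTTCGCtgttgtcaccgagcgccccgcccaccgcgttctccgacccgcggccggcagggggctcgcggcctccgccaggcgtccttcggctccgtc

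Partners and regulators of NRF2 moved with the members in part. Of 14 tested genes of this list, 7 rose at 1000 µM against 0 µM, 2 fell and 5 did not pass, where 20.6% of all genes rose and 20.6% fell. MAFG, a small MAF partner of NRF2, rose from 45.8 ± 2.04 to 105 ± 3.67 CPM (SD, n = 3; log2 1.20, edgeR adjusted p = 3.69e-09). BACH1, a repressor that competes at the same elements, rose by log2 0.97, and SQSTM1, an autophagy receptor that binds KEAP1, by 0.79. NFE2L1, a relative of NRF2 that controls proteasome genes, rose by 0.66. PALB2, which can bind KEAP1, rose by 0.40, BTRC, a subunit of another ligase for NRF2, by 0.39, and CUL3 by 0.38. NFE2, an erythroid relative at a low level in these cells, fell by 1.42 on the log2 scale, from 6.18 to 2.30 CPM, and RBX1, the RING subunit of the CUL3 ligase, fell by 0.45. Values that did not pass were 0.08 for MAFF, −0.20 for MAFK, −0.08 for NFE2L3, 0.07 for SYVN1 and −0.16 for DPP3. Against other doses in place of the controls, 4 to 5 genes of the list were higher and 1 lower, and against 100 µM the counts were 4 and 1 (8.15% and 6.55% of all genes).

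The rest of glutathione metabolism moved in both directions. Of 14 other genes of synthesis and turnover, 1 rose, 4 fell and 9 did not pass (20.6% of all genes each way), with a median log2 change of −0.04 against −0.03 over all tested genes. CHAC1, which degrades glutathione, rose by log2 1.44 from a low level (2.31 to 6.26 CPM). OPLAH, the 5-oxoprolinase of the glutathione cycle, fell by 0.58, GSS, the second enzyme of synthesis, by 0.41, and GGT1, which starts glutathione breakdown outside the cell, by 0.38. Among 30 genes that use or export glutathione 5 rose and 12 fell, where 20.6% of all genes did each, with a median of −0.35. The count of rises is thus near the background. The exporters ABCC2 (log2 0.92), ABCC5 (0.71) and ABCC1 (0.59) rose. The glutathione transferase GSTO2 fell by 1.15, the peroxidase GPX1 by 0.84 and the mitochondrial glutaredoxin GLRX5 by 0.78.

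In the thioredoxin system around TXNRD1 and SRXN1, more genes fell than rose. Of 13 other thioredoxin and peroxiredoxin genes 1 rose and 8 fell, with a median of −0.52 and 20.6% of all genes called each way. TXNIP, which binds and inhibits thioredoxin, rose by log2 0.29, while PRDX5 fell by 0.92, TXN2 by 0.63 and PRDX6 by 0.52. Of 27 other genes often listed as NRF2 targets, 7 rose, 8 fell and 12 did not pass, with a median of −0.07; with 20.6% of all genes called each way, these counts are near the background. OSGIN1 rose by 1.51, and the aldo-keto reductases AKR1C2 and AKR1C1 by 0.95 and 0.94; these are near-identical paralogs, so the split of reads between them is uncertain. CBR1, a carbonyl reductase, fell by 0.93, BLVRB, a biliverdin reductase, by 0.60, and FTL, ferritin light chain, by 0.75, with processed copies of FTL as a further source of uncertain reads. SOD1 and CAT, the tested genes of superoxide and peroxide removal, did not pass (0 higher and 0 lower by edgeR or DESeq2; SOD1 had an unadjusted p of 0.0452).

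The counts of falling genes changed with the reference dose. With another dose in place of 0 µM, 0 to 3 other NRF2 targets fell and 8 to 10 rose, 0 to 3 thioredoxin and peroxiredoxin genes fell, 0 to 1 genes of synthesis and turnover fell, and 2 to 6 genes of glutathione use fell. Against 100 µM, 8 other NRF2 targets rose and 0 fell, and 0 thioredoxin and peroxiredoxin genes changed. Of all tested genes 8.15% rose and 6.55% fell against 100 µM, while 20.6% fell against 0 µM. Falls against 100 µM were thus fewer over all genes too, and whether the lists differed from all genes in this was not tested. The shares of all genes that fell against the other doses are not given here. Single libraries also mattered: without 0 µM replicate 1 or without 1000 µM replicate 3 the falling counts were 3 for thioredoxin and peroxiredoxin, 8 for glutathione use and 5 for other NRF2 targets. Without 1000 µM replicate 3, 1 gene of synthesis and turnover fell. The share of all genes called in these fits is not given here, so the smaller counts cannot be read as particular to the lists.

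**Figure D4:**
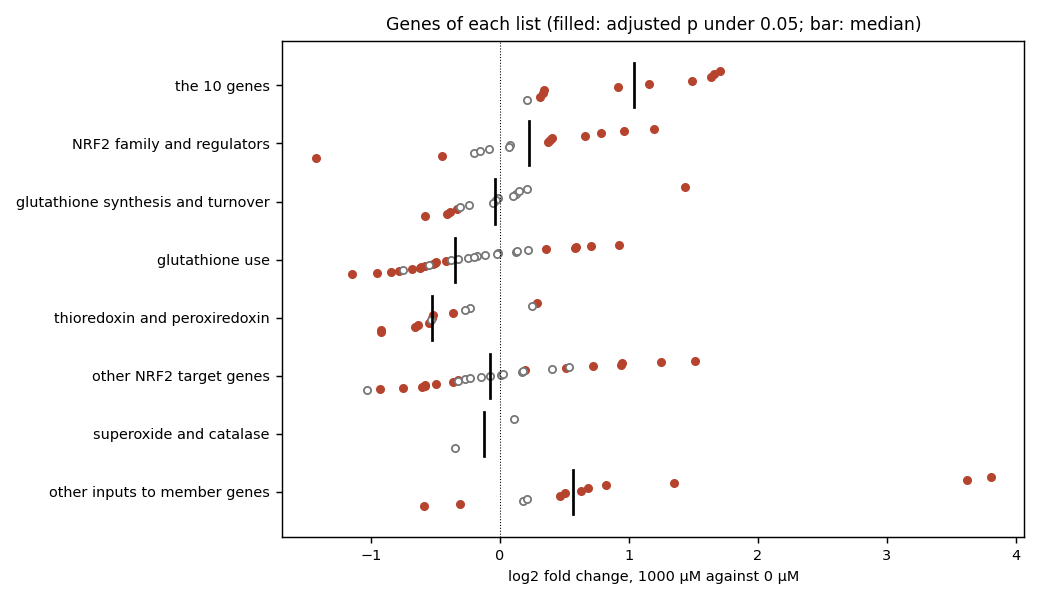
Log2 fold change at 1000 against 0 µM (horizontal axis) of each tested gene, by list (rows; the top row is the 10 members). Filled red circles have an edgeR adjusted p under 0.05, open grey circles do not, and the black bar is the median of the row. The 10 members have a median of 1.04, and the thioredoxin and peroxiredoxin row has the lowest, at −0.52.

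Other factors known to act on some of the member genes were also measured. Of 12 tested genes of the ATF4 and aryl hydrocarbon receptor (AHR) pathways, which can act on SLC7A11 and on NQO1, 8 rose, 2 fell and 2 did not pass, where 20.6% of all genes rose and 20.6% fell. CYP1A1, the classic AHR target, went from 44.6 ± 1.65 to 623 ± 26.2 CPM (SD, n = 3; log2 3.80, edgeR adjusted p = 3.78e-13). ALDH3A1 rose by log2 1.35 and AHR itself by 0.82. The stress factor DDIT3 fell by 0.59 and TRIB3 by 0.31. Of the other genes of the ATF4 pathway, ATF4 itself (0.68), VLDLR (0.63) and ASNS (0.46) rose. SESN2 (0.18, edgeR adjusted p = 0.123) and DDIT4 (0.21, adjusted p = 0.266) did not pass. These genes are named after their values were seen. Against 100 µM, 10 of the 12 were higher and 0 lower (8.15% and 6.55% of all genes). What part these pathways have in the levels of the members was not tested.

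The genes whose levels followed each member most closely over the 21 libraries were looked up among 10579 genes with a mean of at least 5 CPM, by Pearson's r of log2 CPM, as a description. All these values share the same libraries and the step to 1000 µM. GCLC was most like IFRD1 (r = 0.988), TXNRD1 most like AGO4 (0.982) and then IFRD1 (0.982), and SRXN1 most like ADORA2B, an adenosine receptor gene (0.984). NFE2L2 was most like TMCC1 (0.971) and ERRFI1 (0.970), GCLM most like SKIL (0.975), and SLC7A11 most like ABCC2 (0.977). NQO1 and GSR both had SEPHS2, a selenophosphate synthetase, as their closest gene (0.959 and 0.954). KEAP1 was most like TMC6 (0.972) and HMOX1 most like CARS1 (0.950). Over the 18 libraries below 1000 µM, r was 0.832 for GCLC with IFRD1, 0.931 for SLC7A11 with ABCC2 and 0.937 for HMOX1 with CARS1. No other member was among the candidates, since members were left out.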

How the data were processed

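The authors deposited 1 table of raw read counts per gene, whole numbers with no normalization; 21 of its per-sample columns matched the sample labels and were used, and 21 others were not used. The submitters' processing notes name HISAT2, DESeq2 and GRCh38; the counting program, its annotation and its strand setting are not given in the sources used here. Features without an Ensembl ID held 0.547% to 0.613% of the counts. They stayed in the table, and 1617 of them were tested.

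Symbols were matched by Ensembl ID. Counts were fitted with edgeR 4.0.16 (R 4.3.3; glmQLFit and glmQLFTest, TMM factors 0.923 to 1.07, filterByExpr with a minimum count of 10) in 1 model of 7 groups and 21 libraries with 14 residual degrees of freedom; the common biological coefficient of variation was 0.162. P-values were Benjamini-Hochberg adjusted over all 17468 tested genes, with a threshold of 0.05. SE is the log2 change divided by the square root of F. The models were tested on simulated data. A count of 0 allows up to 3 counts, or 0.0735 to 0.107 CPM without TMM factors, for counting error only. No pair of replicate libraries was alike within sampling noise (chi-square per gene 5.45 to 207 over 21 pairs).

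Members and lists were chosen with earlier results of these data known. Named were all members, all tested genes of the NRF2 family list, and from each other list up to 3 genes higher and 3 lower past the threshold at 1000 against 0 µM by smallest p-value. Outside this rule ATF4, VLDLR, ASNS, SESN2, DDIT4, SOD1 and CAT were also named. Up to 2 genes per member were taken by highest r, of which not all are reported. Alternatives were RLE scaling, other filters, the replicate block, the mitochondrial share as covariate, the 6 samples alone, DESeq2 1.42.0, other reference doses, other dose scales and leaving out each library. Exons and overlaps came from the GENCODE annotation of GRCh38 and promoter windows from RefSeq.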

Additional observations from a re-analysis of the deposited data

How the results depend on the processing

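The 6 strong rises at 1000 against 0 µM (NFE2L2, GCLC, GCLM, SLC7A11, TXNRD1 and SRXN1) kept their direction and their call in every alternative run, whereas KEAP1, NQO1 and GSR lost the call in 2, 6 and 2 alternatives. Leaving out 1 library at a time, the members past the threshold numbered 6 to 9 at 1000 against 0 µM (6 without 1000 µM replicate 2), 9 to 10 at 1000 against 100 µM, 0 to 1 each at 0.01, 1 and 100 µM, 0 in every case at 0.1 µM, 0 to 3 for 10 µM, 5 to 7 for the slope (5 without 1000 µM replicate 2 or 3, where SRXN1 was lost) and 10 to 10 among the 7 groups. The other alternatives gave 8 to 10 at 1000 against 0 µM and 9 to 10 at 1000 against 100 µM. With DESeq2, 1 member passed at 0.01 µM. At 10 µM, where 1 member passed, the number was 0 without a filter on low counts, 3 with at least 10 counts in every sample, 2 with the mitochondrial share as covariate, 6 with only the 6 samples compared (1 higher and 5 lower) and 3 with DESeq2. In that 6-sample fit lower calls also rose for glutathione use (11 to 15) and for thioredoxin and peroxiredoxin (5 to 9). They stayed at 4 for the ATF4 and AHR list. The share of all genes called in each alternative is not given here, so the member counts of this paragraph have no background beside them. At 100 µM, where 1 passed, it was 2 with only the 6 samples compared and 0 with the replicate block. The slope passed for 10 members on the linear dose, for 9 with the 18 treated samples and for 0 without the 3 samples at 1000 µM, when 0 members differed among the groups. Without those samples the slopes of KEAP1 (−0.0069), GCLM (−0.016), HMOX1 (−0.026), NQO1 (−0.033), SRXN1 (−0.042) and GSR (−0.033) turned negative. That alternative leaves out the dose at which all 10 were highest. The causes of the shifts in this and the other alternatives were not tested.

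Samples with the same replicate number did not deviate together (63 pairs, r from −0.437 to 0.249, 11 over 0.1), and 3 of 21 libraries correlated best with their own number, so the numbers were not taken to pair the samples. With the replicate block the counts were 0, 0, 0, 1 and 0 at 0.01 to 100 µM, 9 at 1000 µM, 10 against 100 µM, 6 for the slope and 10 among the groups. At 0.01 µM that fit called 0 of all tested genes, against 864 in the fit without the block. For the other comparisons the share of all genes called with the block is not given here. The SE of a member's log2 change at 1000 against 0 µM was 0.09 to 0.22 with 3 samples per dose. The alternatives without the 3 libraries of highest mitochondrial share and those for the lists were chosen after seeing the data.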
